A study of Mus musculus with 4 samples.

Results

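Chromatin accessibility of 10 genes of the Wnt/beta-catenin pathway was followed in mouse hepatocytes during regrowth of the liver after partial hepatectomy (PHx), an operation that takes out several of its lobes. The genes were Axin2, Lgr5, Lgr4, Rnf43, Znrf3, Tbx3, Ctnnb1, Tcf7l1, Tcf7l2 and Apc. The list was set by name as Wnt signalling genes of liver zonation and not by a limit on their values, but earlier results of these data were known. They were 10 of 20780 autosomal protein-coding genes in the annotation, and all 10 were among the 15061 genes with a mean level of at least 5 counts per 1000000 counts in peaks (CPM) over the libraries. Single-nucleus ATAC-Seq (scATAC-Seq) uses the Tn5 transposase to cut open DNA in nuclei, and a droplet barcode assigns each fragment to 1 nucleus. Hepatocytes were isolated from adult male C57BL/6J mice aged 10 to 12 weeks by collagenase perfusion, without surgery (0 h, undamaged liver) and at 48, 72 and 96 h after PHx. Each time point had 1 library, and that of 48 h came from 1 mouse. How many animals stood behind the libraries of 72 and 96 h was not stated in the sources read. With 1 library per time point there was no replicate check and no test, and library and time cannot be told apart. Differences are therefore given as levels with exact 95% Poisson intervals, which cover counting error only.

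In the liver lobule, Wnt ligands and R-spondins from endothelial cells around the central vein keep beta-catenin active in the neighbouring hepatocytes, which then carry the pericentral program of glutamine synthesis and drug metabolism. Without a Wnt signal, a destruction complex built on AXIN and APC marks beta-catenin for degradation. With the signal, beta-catenin enters the nucleus and acts with TCF/LEF factors on target genes. The ubiquitin ligases RNF43 and ZNRF3 remove Frizzled receptors from the cell surface, and R-spondins bound to LGR4 or LGR5 block them. Axin2, Lgr5, Rnf43, Znrf3 and Tbx3 are known targets of the pathway as well as parts of it or markers of its activity.

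The libraries differed in depth, in peaks and in the barcodes they shared. Nuclei with at least 1000 counts numbered between 3224 and 4256 per library, and their median count was 26005, 11629, 4841 and 3681.5 at 0, 48, 72 and 96 h. Peaks were called in each library on its own and covered 153.583, 179.037, 141.203 and 60.896 Mb. Between 681 and 882 barcodes occurred in both libraries of a pair, and nuclei with such a barcode held 49.3%, 16.6%, 3.05% and 6.62% of the counts. Why barcodes were shared was not tested. The ratios of the 10 genes to 0 h and the comparisons with Cyp2e1 were also computed without them, but not the levels of single regions, the order of levels, the nuclei low in hepatocyte markers, the pairs of members or the pathway list. Of the 30 ratios of the 10 genes to 0 h, 4 changed sign without shared barcodes. All 14 hepatocyte markers had counts in every library, with a summed level of 4928 to 7726 CPM, against 211 to 327 CPM for 10 endothelial, 110 to 240 CPM for 8 myeloid, 76.1 to 155 CPM for 8 stellate and 46.6 to 69.4 CPM for 5 cholangiocyte markers. At 0, 48, 72 and 96 h, 1, 0, 0 and 1 of the endothelial, 4, 1, 1 and 4 of the myeloid, 3, 1, 1 and 3 of the stellate and 2, 1, 0 and 2 of the cholangiocyte genes had no count, Clec4f of Kupffer cells (0 and 96 h) and Krt19 of cholangiocytes (0, 48 and 96 h) among them. As peaks were called per library, no count can mean that no peak was called there.

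The sequences behind the accessible regions are given for the feedback genes whose levels differed most between libraries, Lgr5, Rnf43 and Znrf3, and for Axin2, a widely used reporter of the pathway. A search was made on both strands for the TCF/LEF letters CTTTGAT and CTTTGTT, and matches are in capitals (ATCAAAG and AACAAAG on the printed strand are matches on the other one). The Axin2 sequence is the 250 bases before its start site, from the RefSeq promoter table of GRCm38.p6 (chr11:108920099-108920348, plus strand, the strand of the gene). The others are 300-base windows from the GRCm38 genome, plus strand, at the centre of the longest 96 h peak of a region that had a peak in every library. That of Lgr5 (chr10:115586822-115587121) lies in an intron next to the start of the gene, which runs on the minus strand. Those of Rnf43 (chr11:87709690-87709989) and Znrf3 (chr11:5297045-5297344) are intronic and were picked because each is the only one of the 6 windows of its gene with a match. The other 5 of each gene, those over the start site included, had none.
Axin2 promoter: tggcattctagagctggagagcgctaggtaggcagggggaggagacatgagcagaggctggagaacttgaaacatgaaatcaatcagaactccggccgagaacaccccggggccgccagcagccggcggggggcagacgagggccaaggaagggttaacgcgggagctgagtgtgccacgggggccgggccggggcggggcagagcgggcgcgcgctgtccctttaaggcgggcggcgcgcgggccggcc
Lgr5 start region: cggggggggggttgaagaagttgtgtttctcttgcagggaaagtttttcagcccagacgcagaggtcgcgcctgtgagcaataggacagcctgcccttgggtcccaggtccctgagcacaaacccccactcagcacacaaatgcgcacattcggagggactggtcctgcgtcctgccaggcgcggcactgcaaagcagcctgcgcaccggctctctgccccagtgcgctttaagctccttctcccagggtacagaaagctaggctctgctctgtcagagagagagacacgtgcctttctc
Rnf43 intron: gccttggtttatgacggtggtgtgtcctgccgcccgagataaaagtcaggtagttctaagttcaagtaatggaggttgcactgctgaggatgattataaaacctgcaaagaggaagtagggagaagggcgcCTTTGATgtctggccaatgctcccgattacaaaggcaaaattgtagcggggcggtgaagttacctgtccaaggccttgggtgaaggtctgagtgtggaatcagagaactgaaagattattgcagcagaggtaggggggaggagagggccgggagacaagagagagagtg
Znrf3 intron: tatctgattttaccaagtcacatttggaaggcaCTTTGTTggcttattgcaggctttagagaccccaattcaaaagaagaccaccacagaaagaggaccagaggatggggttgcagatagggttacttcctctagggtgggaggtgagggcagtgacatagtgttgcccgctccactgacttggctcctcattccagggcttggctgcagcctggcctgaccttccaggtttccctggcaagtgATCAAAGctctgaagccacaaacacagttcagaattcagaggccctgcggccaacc

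The Rnf43 window held 1 match, the Znrf3 window 2, and the Axin2 and Lgr5 sequences none. Of 77 windows of the 10 genes, 8 (10.4%) had a TCF/LEF match, against 12.1% of 62833 windows of the same kind genome-wide. Lgr4 had 3 of these 8 windows, Tcf7l2 2, and Rnf43, Znrf3 and Apc 1 each. Of the promoters in the table for Axin2, Lgr4, Rnf43, Ctnnb1, Tcf7l1 and Tcf7l2, that of the second start site of Tcf7l2 was the only one with a match, 14 bases before the start, where 8.06% of 32851 promoters had one. The AP-1 letters TGANTCA were in 6 of the 77 windows (7.79%, against 9.57% genome-wide) and the HNF4 letters CAAAGTCCA in none (1.47% genome-wide). The shares of the 10 genes were thus close to or below those of all regions, and a match is a description of letters, not of binding.

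At 96 h after PHx, Lgr5 and Rnf43 stood at the ends of the range of the 10 genes in CPM. Lgr5 had the highest ratio to 0 h at 48 and 72 h too, with Tcf7l2 (48 h) and Znrf3 (72 h) the lowest. Lgr5, a receptor for R-spondins and a marker of pericentral hepatocytes, had a higher level in each library after PHx than in undamaged liver. Rnf43, the ligase that removes Frizzled receptors, was lower at 96 h. The level of a gene was the count in peaks over its body and 2 kb upstream, as CPM of all counts in peaks of the library. Past a fixed 2-fold difference on the scale of log2(CPM + 1) were Lgr5 alone at 48 h, where 7.31% of all genes were past it in either direction, Lgr5 alone at 72 h (16.2%), and Lgr5 and Rnf43 at 96 h (13.9%). With 10 genes, these counts of 1, 1 and 2 are near the background. The median log2 ratio of the 10 genes was -0.14, 0.15 and -0.0013 at 48, 72 and 96 h, beside -0.03, -0.01 and 0.07 over all genes.

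**Figure D1:**
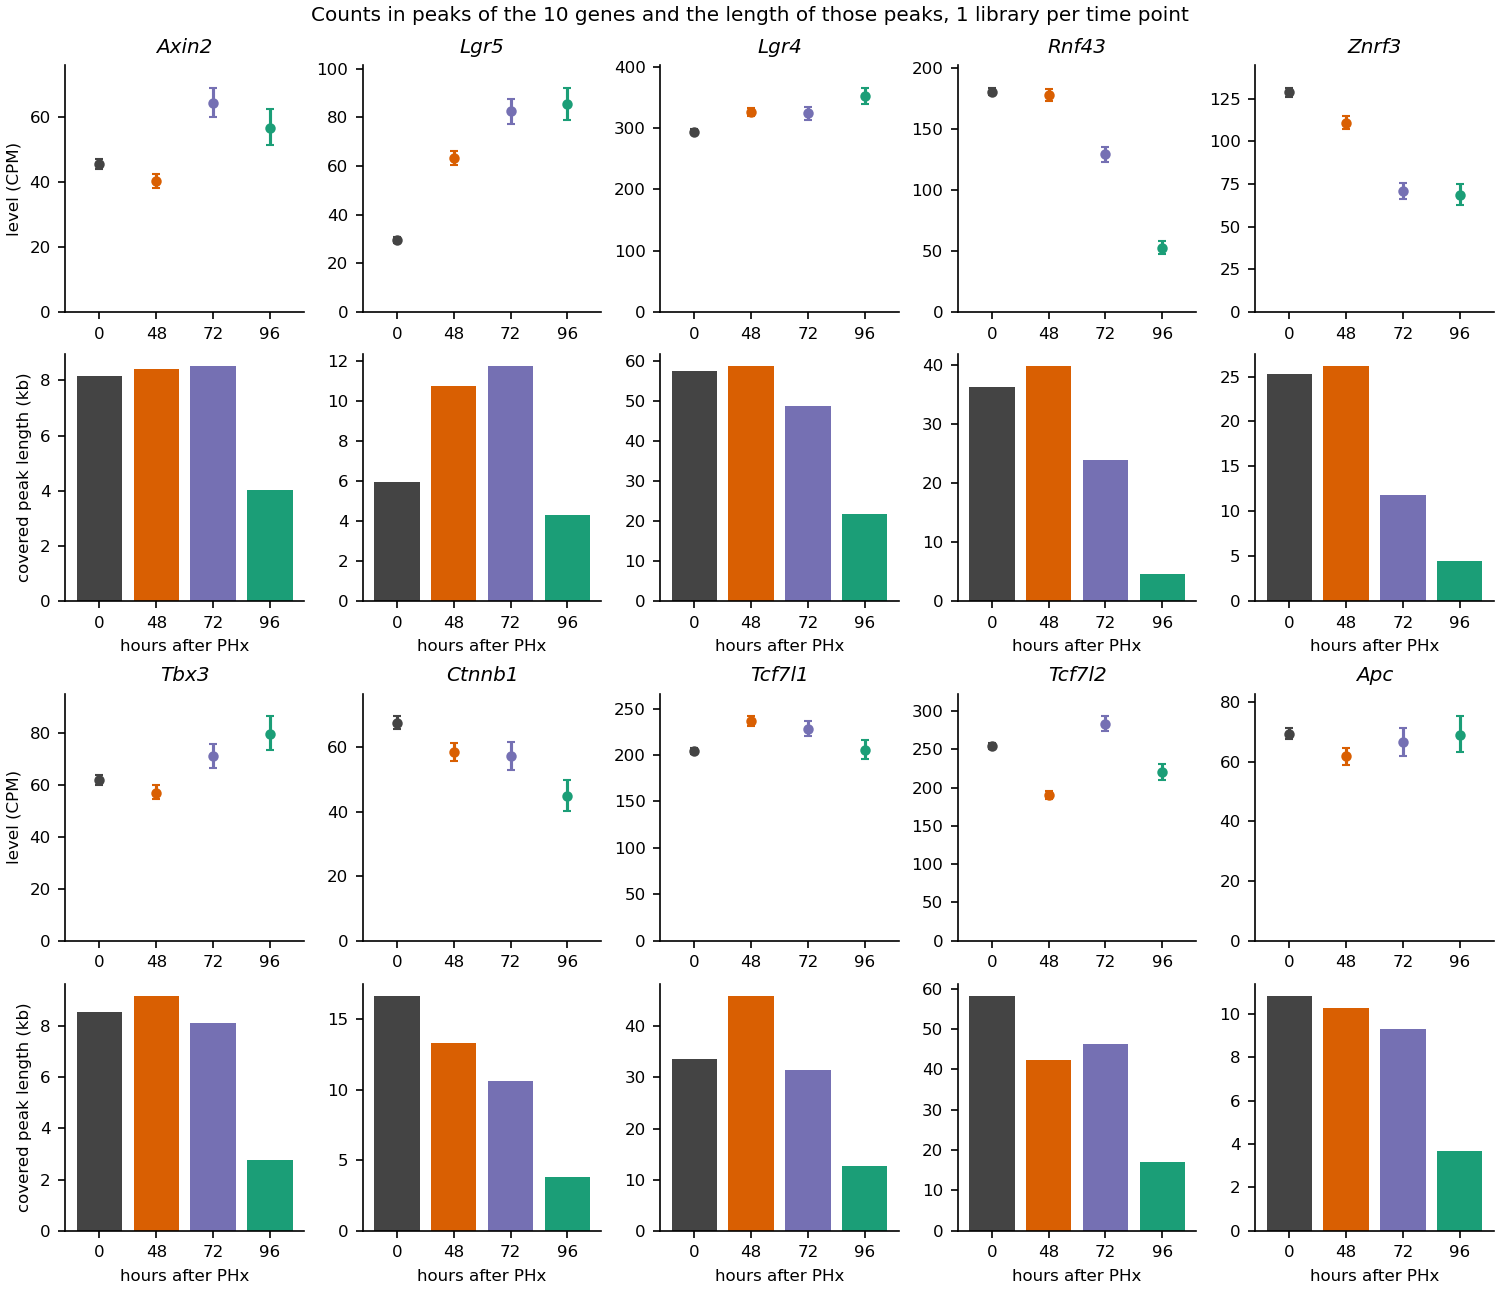
Level (CPM, points, with 95% counting intervals) and covered peak length (kb, bars) of each gene in the libraries of 0, 48, 72 and 96 h, 1 per time point. Lgr5 goes from 29.7 to 85.4 CPM and Rnf43 from 181 to 52.7 CPM, while the covered length at 96 h is the shortest of the 4 libraries for every gene.

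Among the receptors, Lgr5 (ENSMUSG00000020140.15, chr10:115450311-115587780, minus strand) had 29.7 CPM at 0 h (95% interval 28.4–31.0), 63.4 at 48 h (60.6–66.3), 82.5 at 72 h (77.5–87.7) and 85.4 at 96 h (78.9–92.3). The 3 later libraries were all above the first with intervals apart, and those of 72 and 96 h overlapped. The level was 2.14, 2.78 and 2.88 times that of 0 h, and its log2 ratio of 1.07, 1.45 and 1.49 was above that of 95.4%, 95.3% and 98.8% of genes. Peaks over the gene covered 5946, 10762, 11757 and 4290 bp, which was 1.81, 1.98 and 0.721 times the length at 0 h for 48, 72 and 96 h. Median depth per nucleus fell in the order in which Lgr5 went up, and its part in the difference was not tested. Per kb of covered peak the log2 ratio of Lgr5 was 0.24, 0.49 and 2.0. Past 2-fold on that scale were none of the 10 genes at 48 and 72 h and all 10 at 96 h, where 1.28%, 2.07% and 72.1% of all genes were. Part of the gene overlaps the protein-coding A930009A15Rik, which shared 10.5% to 13.3% of the counts, and ATAC-Seq does not tell strands apart.

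Most of the Lgr5 signal came from the region at its start site (chr10:115584702-115588539), with 63.3%, 60.4%, 57% and 73.5% of the counts of the gene. Its level was 18.8, 38.3, 47.0 and 62.7 CPM at 0, 48, 72 and 96 h over 2689, 3838, 3372 and 2283 bp of peak. The 96 h value was thus the highest of the 4 over the shortest peak, with a log2 ratio of 1.69. In regions whose peaks at 0 and 96 h differed in length by at most 1.2 times, Lgr5 went from 23.1 to 74.0 CPM, a log2 ratio of 1.63. All genes with such regions had a median of 0.91 there, 42.8% were at least 2-fold higher, and Lgr5 was above 93.9% of 1517 genes. Lgr5 had no region of near-equal length at 48 h and could not be measured so there, and at 72 h it had 1, of 0.988 and 2.14 CPM (log2 0.66). Of the other genes with such regions, none was 2-fold higher at 48 or 72 h, where 0.234% and 1.52% of genes with such regions were. A second region over an exon (chr10:115478336-115480336) had 4.36, 6.05, 8.37 and 11.2 CPM. Of 18 regions over Lgr5, 5 had a peak in every library and 7 had one at 72 h alone.

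Lgr4 (ENSMUSG00000050199.13, chr2:109917647-110014257, plus strand), the R-spondin receptor found on hepatocytes across the lobule, had 294 CPM at 0 h (290–298), 326 at 48 h (319–332), 324 at 72 h (314–334) and 352 at 96 h (339–366). The later libraries were slightly higher than 0 h, by log2 0.15, 0.14 and 0.26, near the middle of all genes (65.5%, 60.2% and 62.7% of genes were lower). Its start region (chr2:109916819-109923683) had 66.2, 62.9, 84.8 and 120 CPM. Covered length was 57341, 58671, 48615 and 21694 bp.

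**Figure D2:**
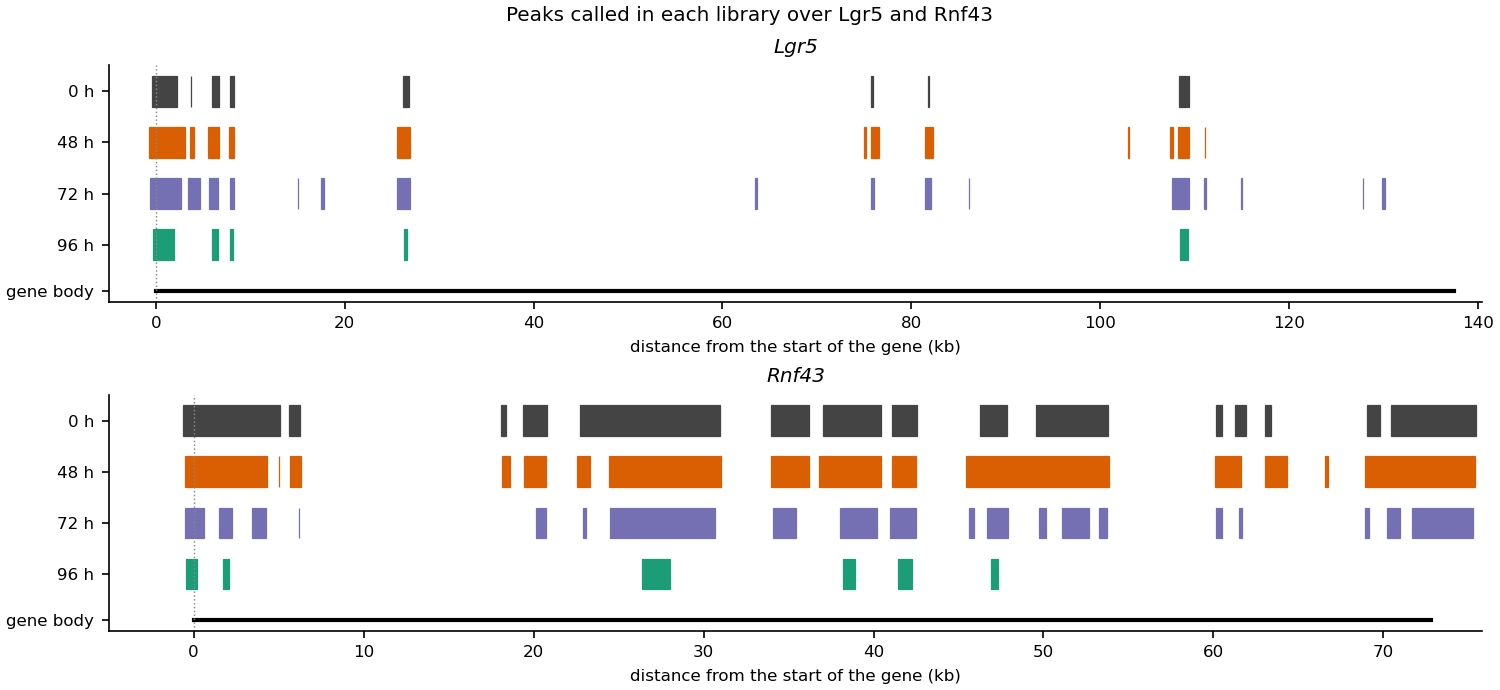
Peaks called in each library (coloured blocks) over Lgr5 and Rnf43, by distance from the start of the gene in kb; the black line is the gene body. Lgr5 keeps peaks near its start in all 4 libraries, and Rnf43 has 15, 15, 20 and 6 peaks at 0, 48, 72 and 96 h, the longest of 8246, 8425, 6174 and 1648 bp; a 96 h peak just past the end of Rnf43 is not drawn.

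The ligases that remove Frizzled receptors had fewer CPM at 72 and 96 h, but not per covered kb. Rnf43 (ENSMUSG00000034177.15, chr11:87662722-87735539, plus strand) had 181 CPM at 0 h (178–184), 178 at 48 h (173–183), 129 at 72 h (123–136) and 52.7 at 96 h (47.6–58.2). The 0 and 48 h intervals overlapped, and the other libraries were below both. The log2 ratio was -0.02, -0.48 and -1.76, and at 96 h 3.25% of genes had a lower one. Covered length went from 36287 bp at 0 h to 39796, 23783 and 4567 bp, so that at 96 h length was 0.126 times that of 0 h and the level 0.291 times. Per covered kb, Rnf43 was instead higher at 96 h by log2 1.21, where all genes had a median of 1.26.

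Part of the 96 h value of Rnf43 came from the edge of its window. The region chr11:87731624-87738164 spans the 3' end of Rnf43 and the start site of the neighbouring gene Supt4a, and had 35.9, 30.4, 28.6 and 31.7 CPM in the 4 libraries. Its peaks reached into Rnf43 at 0, 48 and 72 h, but at 96 h the shorter peak ended outside it and was not counted. With every peak of a touching region counted, an alternative added after the data had been seen, Rnf43 had 84.4 CPM at 96 h, a log2 ratio of -1.09, and 3.91% of all genes were at least 2-fold lower on that count. Its other regions differed too. The start region (chr11:87662083-87667780) had 34.1, 26.9, 19.6 and 13.4 CPM over 5698, 4837, 2689 and 981 bp. An intronic region (chr11:87685295-87693748) had 42.0, 37.3, 30.9 and 14.7 CPM. That with the TCF/LEF match printed above (chr11:87708182-87716606) had 16.5, 26.8, 14.0 and 3.15 CPM over 5837, 8425, 3944 and 406 bp. The intron region chr11:87703679-87705273 was near-level, at 12.8, 11.8, 13.3 and 13.5 CPM. The sense-intronic transcript 1110028F11Rik shared 20.5%, 18.9%, 21% and 40.8% of the Rnf43 counts.

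Znrf3 (ENSMUSG00000041961.14, chr11:5276324-5444847, minus strand), the partner ligase, had 129 CPM at 0 h (126–131), 111 at 48 h (107–115), 70.9 at 72 h (66.2–75.7) and 68.8 at 96 h (63.0–75). Its intervals overlapped between 72 and 96 h alone, and both lay below the earlier libraries. The log2 ratio was -0.21, -0.85 and -0.89, short of 2-fold on this count, though not under every other setting. Of all genes, 8.29% and 10.5% were lower at 72 and 96 h. Covered length was 25269, 26199, 11839 and 4485 bp. Per covered kb the log2 ratio of Znrf3 was -0.27, 0.23 and 1.59, so the direction turned at 72 and 96 h. The start region of Znrf3 (chr11:5443140-5445925) did not follow the gene as a whole, with 35.8, 26.0, 26.6 and 40.7 CPM. The intronic region of the printed window (chr11:5295513-5298132) had 12.3, 12.1, 7.40 and 6.70 CPM, and another (chr11:5421452-5423286) 12.6, 8.06, 4.41 and 4.89 CPM.

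**Figure D3:**
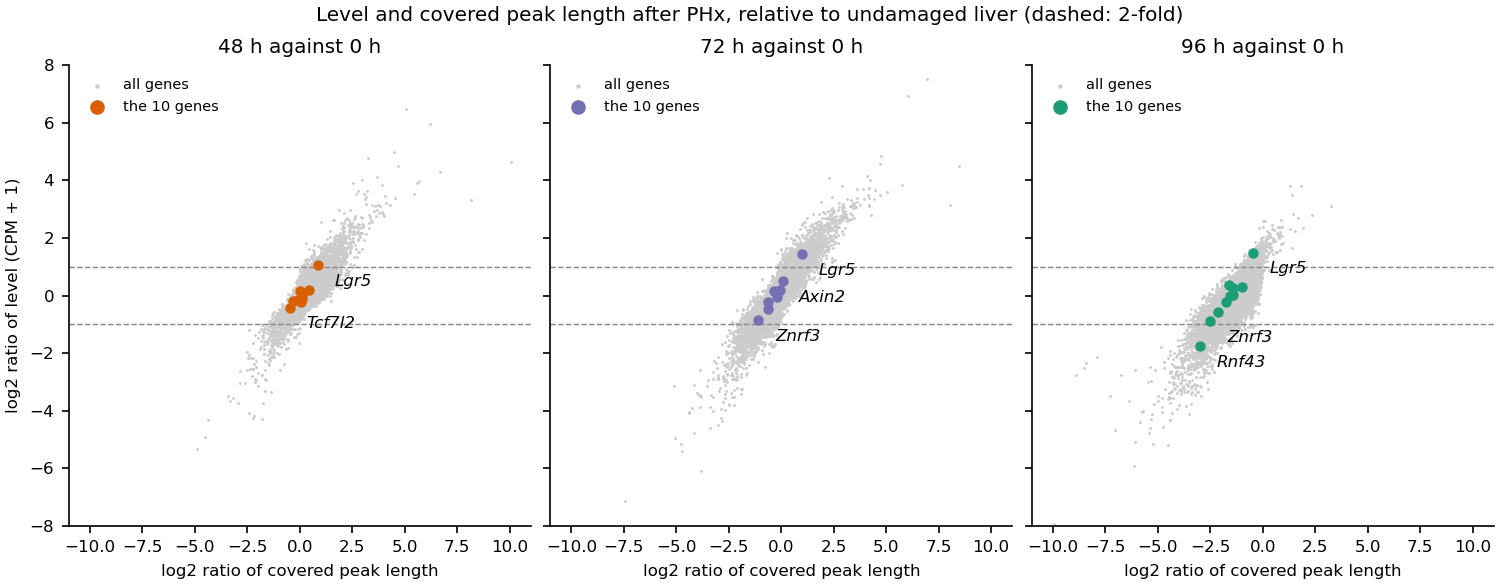
Log2 ratio of the level, log2(CPM + 1), to 0 h against the log2 ratio of covered peak length, for all genes (grey) and the 10 genes (colour), at 48, 72 and 96 h; dashed lines mark 2-fold. The 10 genes lie within the cloud, in which both ratios go together (Pearson r over genes 0.875, 0.907 and 0.838).

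The destruction complex and its substrate showed smaller differences. Axin2 (ENSMUSG00000000142.15, chr11:108920349-108950783, plus strand), a scaffold of the complex that the pathway itself induces, had 45.6 CPM at 0 h (44.0–47.2), 40.4 at 48 h (38.2–42.7), 64.5 at 72 h (60.1–69.1) and 56.8 at 96 h (51.6–62.5). It was lower at 48 h and higher at 72 and 96 h than in undamaged liver, by log2 -0.17, 0.49 and 0.31. Covered length was 8158, 8406, 8530 and 4031 bp, so that the 72 h difference came at nearly the same length. The start region of Axin2 (chr11:108919768-108923199) had 22.9, 19.7, 32.3 and 39.1 CPM. Apc (ENSMUSG00000005871.15, chr18:34220924-34322552, plus strand), the tumour suppressor that binds beta-catenin in the complex, was the most level of the 10, with 69.5 CPM at 0 h (67.6–71.5), 61.9 at 48 h (59.1–64.7), 66.5 at 72 h (62.1–71.2) and 69.1 at 96 h (63.3–75.3). Its highest and lowest values differed 1.12-fold. The pseudogene Gm10548 shared 40.0% to 56.9% of these counts. Ctnnb1 (ENSMUSG00000006932.17, chr9:120929216-120960507, plus strand), which encodes beta-catenin, had 67.6 CPM at 0 h (65.7–69.6), 58.5 at 48 h (55.8–61.3), 57.2 at 72 h (53.1–61.6) and 44.8 at 96 h (40.1–49.9). All libraries after PHx were below 0 h, by log2 -0.21, -0.24 and -0.58, over 16674, 13322, 10594 and 3812 bp of peak.

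Of the transcription factors, none reached 2-fold. Tcf7l1 (ENSMUSG00000055799.13, chr6:72626378-72789254, minus strand), the TCF that mainly represses targets, had 205 CPM at 0 h (201–208), 236 at 48 h (231–242), 229 at 72 h (220–237) and 205 at 96 h (195–216). It was higher at 48 and 72 h and back at the 0 h level at 96 h, over 33640, 45947, 31420 and 12704 bp. Tcf7l2 (ENSMUSG00000024985.19, chr19:55741820-55933654, plus strand), the main TCF of hepatocytes, had 254 CPM at 0 h (251–258), 190 at 48 h (185–195), 284 at 72 h (274–293) and 220 at 96 h (210–231), over 58247, 42271, 46411 and 17035 bp. No intervals of Tcf7l2 overlapped, and its order did not follow time. The one region of the 10 genes with peaks of near-equal length in all 4 libraries was in a Tcf7l2 intron (chr19:55806064-55808996), with 21.1, 17.6, 24.6 and 28.1 CPM. The log2 ratio to 0 h at 96 h was 0.40 there, beside a median of 1.02 over 987 such regions of the genome. Tbx3 (ENSMUSG00000018604.18, chr5:119670669-119684724, plus strand), a T-box repressor and beta-catenin target of pericentral hepatocytes, had 61.8 CPM at 0 h (60.0–63.7), 57.1 at 48 h (54.5–59.8), 71.1 at 72 h (66.5–76.0) and 79.8 at 96 h (73.5–86.5). The 2 later libraries were above the 2 earlier ones, while covered length was 8560, 9184, 8108 and 2761 bp. The antisense gene Tbx3os1 shared 84.9% to 100% of the Tbx3 counts, so the values belong to both.

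Between genes, levels were compared per kb of window. In undamaged liver the order was Tbx3 (3.85 CPM per kb), Lgr4 (2.98), Rnf43 (2.42), Ctnnb1 (2.03), Axin2 (1.41), Tcf7l2 (1.31), Tcf7l1 (1.24), Znrf3 (0.755), Apc (0.671) and Lgr5 (0.213), with no overlap between neighbours. At 96 h Tbx3 (4.97), Lgr4 (3.57) and Axin2 (1.75) led, and Znrf3 (0.404) was last. The intervals of Rnf43 (0.704), Apc (0.667) and Lgr5 (0.612), each with the others, of Ctnnb1 (1.35) and Tcf7l1 (1.25), and of Tcf7l1 and Tcf7l2 (1.14) overlapped then. With the peak at its edge counted, Rnf43 was at 1.13 CPM per kb (1.04–1.22), apart from Apc and overlapping Tcf7l2, Tcf7l1 and Ctnnb1. Rnf43 thus went from rank 3 to rank 7, a rank that is not resolved from those 3 genes with the edge peak and from Apc and Lgr5 without it, while Lgr5 went from rank 10 to rank 9. The profile of log2 ratios nearest to that of Lgr5 among 15060 genes was that of Bend6 (distance 0.0602), for Rnf43 it was Ces3a (0.0896) and for Znrf3 Slc31a1 (0.0579), by Euclidean distance over the 3 ratios to 0 h.

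Nuclei low in hepatocyte markers and high in markers of other liver cells made up 3.24%, 3.39%, 4.91% and 3.72% of nuclei. They were set by a share of counts under 0.5 times the library median over hepatocyte genes and over 2 times it over endothelial, myeloid and stellate genes, with 125, 220, 372 and 306 nuclei near the first of these limits, so they are a range and not a cell type. Their median count was 3398 at 0 h against 26999.5 in the rest. In these nuclei Lgr5 had 6.43 CPM at 0 h against 29.8 in the rest, and 23.0 against 63.7 at 48 h. At 72 h (65.6 against 82.9) and 96 h (99.2 against 85.1) its intervals overlapped. Rnf43 was lower in them at 0 h (91.7 against 181 CPM) and 48 h (97.5 against 179), and Znrf3 at 0 h (67.6 against 129). Tbx3 had 3.22 against 62.1 CPM at 0 h and 19.1 against 57.4 at 48 h. Lgr4 had 134 against 295 CPM at 0 h, 182 against 327 at 48 h and 234 against 326 at 72 h. Tcf7l2 was higher in them at 0 h (351 against 254 CPM), 48 h (300.3 against 189) and 72 h (444 against 280.3). So were Ctnnb1 at 48 h (101 against 58.1) and 72 h (101 against 56.2), Tcf7l1 at 72 h (317 against 227) and Apc at 0 h (130 against 69.2). Axin2 went both ways, with 7.65 against 40.6 CPM at 48 h and 110 against 55.9 CPM at 96 h. Without these nuclei, the genes past 2-fold were again 1, 1 and 2.

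The position of a nucleus along the lobule was approached through Cyp2e1, a cytochrome P450 of pericentral hepatocytes. Its own level was 325, 224, 138 and 191 CPM at 0, 48, 72 and 96 h. Before depth was equalised, every member correlated with Cyp2e1 at 0.1 or more in every library, and at 0 h between 0.341 and 0.682, beside a median of 0.397 over all genes. The depth of a nucleus enters both counts. Each nucleus was therefore thinned to 2000 counts, which left 3719, 3579, 3620 and 2484 nuclei. Then Lgr5 at 0 h was the only member at 0.1 or more in size (r = 0.105), where 0.373% of genes were. At 48, 72 and 96 h no member reached it (background 0.179%, 0% and 0.0269% of genes). Tcf7l1 was the most negative in every library, at -0.0954, -0.0458, -0.0342 and -0.0243. At this depth a Lgr5 count was seen in 5.03% of nuclei at 0 h, and correlations of this size in such sparse counts are not read as findings. The pericentral list had a median of 0.0915 and the periportal list one of -0.0741 at 0 h.

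The deeper nuclei allowed thinning to 10000 counts, with 3044 nuclei at 0 h, 2170 at 48 h and 591 at 72 h. In undamaged liver, Tbx3 (r = 0.200), Lgr5 (0.194), Rnf43 (0.151) and Axin2 (0.118) then went with Cyp2e1, and Tcf7l1 (-0.220) against it. These 5 of the 10 genes were at 0.1 or more in size, where 3.12% of all genes were. Tbx3 and Lgr5 had a higher r than 99.6% of genes, and 0.113% of genes were below Tcf7l1. The 9 pericentral genes of the list ran from 0.0222 (Rhbg) to 0.411 (Oat), with a median of 0.255, and 7 of them were above Tbx3. The 9 periportal genes reported ran from -0.433 (Hal) to -0.0184 (Ass1), with a median of -0.247, and 5 of them were below Tcf7l1. Without shared barcodes (2189 nuclei) Tbx3 had 0.179, Lgr5 0.204, Rnf43 0.162, Axin2 0.119 and Tcf7l1 -0.204, and Apc, at 0.0912 with them, was at 0.102.

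**Figure D4:**
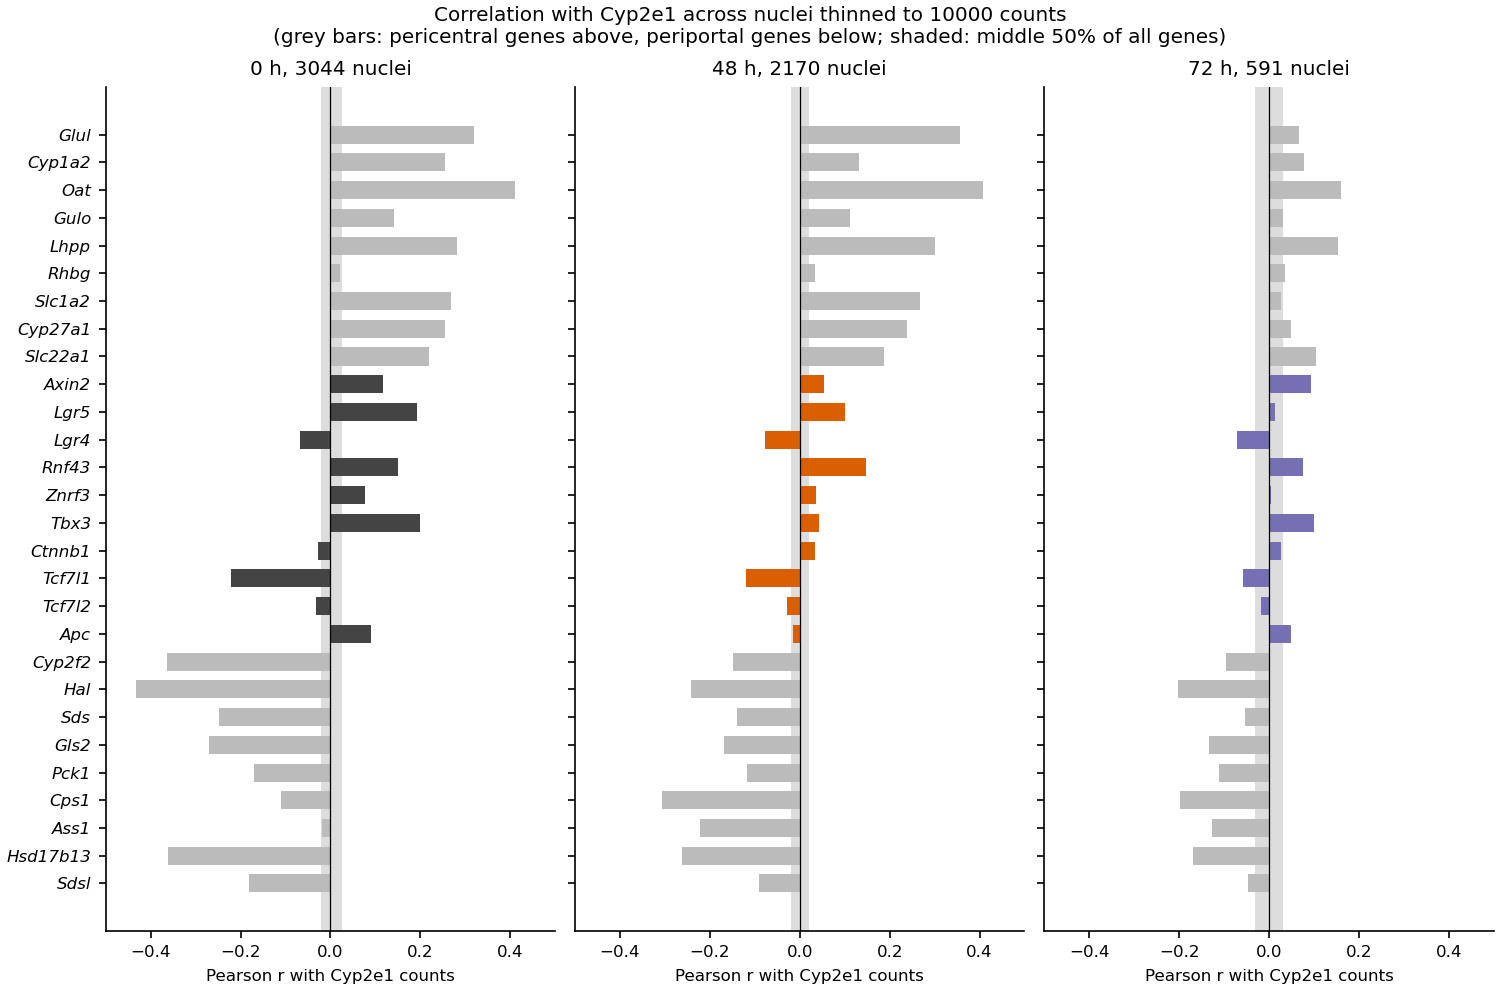
Pearson r with Cyp2e1 counts across nuclei thinned to 10000 counts, for the 10 genes (colour) and for 9 pericentral and 9 periportal genes (grey bars), at 0, 48 and 72 h; the shaded band is the middle 50% of all genes. Axin2, Rnf43 and Tbx3 lie above the band and Tcf7l1 and Lgr4 below it in all 3 libraries, while Lgr5 lies above it at 0 and 48 h and inside it at 72 h (r = 0.0127).

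At 48 h Rnf43 (0.148), Lgr5 (0.101) and Tcf7l1 (-0.120) were at 0.1 or more in size, where 1.51% of genes were, and Lgr4 was at -0.0769. Without shared barcodes (1974 nuclei) Lgr5 was at 0.0916 and so under 0.1, with Rnf43 at 0.147 and Tcf7l1 at -0.121. Tbx3 (0.0440) and Axin2 (0.0532) were under it. At 72 h no member reached it (2.17% of genes did), with Tbx3 at 0.0998, Axin2 at 0.0943, Rnf43 at 0.0765 and Lgr5 at 0.0127. Without shared barcodes (570 nuclei) Axin2 was at 0.102 and so past it, and Tbx3 at 0.0757. The pericentral genes ran from 0.0258 (Slc1a2) to 0.160 (Oat) in that library, with a median of 0.0669, and 6 of the 9 were below Axin2 and Tbx3. The 9 periportal genes ran from -0.203 (Hal) to -0.0463 (Sdsl). Of the libraries measured at this depth, that of 72 h had the fewest nuclei. At 96 h fewer than 500 nuclei were deep enough and no value was taken. All points of a correlation came from the same library, and nuclei of 1 library are not replicates.

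Levels were also summed over nuclei with no Cyp2e1 count and over nuclei with at least 2, of the 2000 kept per nucleus. There were 2553 and 515 such nuclei at 0 h, 2748 and 327 at 48 h, 3071 and 221 at 72 h, and 1983 and 238 at 96 h. The nuclei with Cyp2e1 counts were deeper before thinning (median 35931 against 24731 counts at 0 h). At 0 h Lgr5 had 23.8 CPM without (22.4–25.4) and 38.9 with Cyp2e1 counts (35.4–42.7), and Tbx3 52.4 (50.2–54.6) and 81.9 (76.7–87.4). These were log2 differences of 0.68 and 0.63, higher than in 99.8% and 99.7% of genes. Axin2 went from 41.6 to 56.0 CPM (log2 0.42) and Rnf43 from 170 to 205 CPM (0.27). In the other direction, Tcf7l1 had 230 CPM without (225–235) and 149 with them (142–156), log2 -0.62, lower than in all but 0.472% of genes. Lgr4 (304 and 273 CPM) and Tcf7l2 (263 and 242 CPM) differed by -0.15 and -0.12, Apc and Znrf3 by 0.18 and 0.15, and Ctnnb1 by 0.04.

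**Figure D5:**
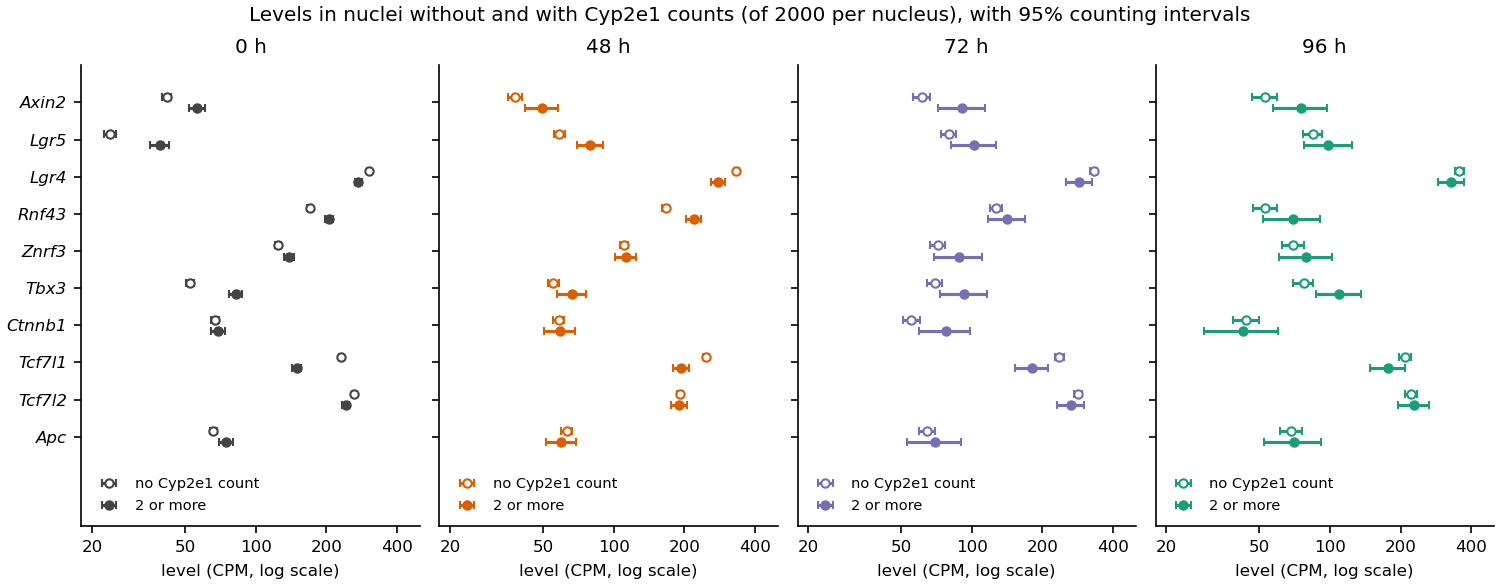
Level (CPM, log axis) of each gene in nuclei with no Cyp2e1 count (open) and with 2 or more (filled) of 2000 counts kept, with 95% counting intervals, per library. The intervals of 9, 5, 2 and 1 of the 10 genes are apart at 0, 48, 72 and 96 h, and they widen as depth falls.

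Intervals were apart for 9 of the 10 genes at 0 h, where 16.9% of all genes had them apart, for 5 at 48 h (7.09%), 2 at 72 h (3.02%) and 1 at 96 h (2.03%). Genes with more counts have narrower intervals, and all members but Lgr5 were above the median gene in level at 0 h. At 48 h those apart were Lgr5 (58.4 and 78.9 CPM), Rnf43 (166 and 219), Axin2 (37.7 and 49.1), Tcf7l1 (247 and 194) and Lgr4 (333 and 278). At 72 h they were Axin2 (61.0 and 90.9) and Tcf7l1 (236 and 180), and at 96 h Tbx3 (77.1 and 109). By value alone, Axin2, Lgr5, Rnf43, Tbx3 and Znrf3 were higher in nuclei with Cyp2e1 counts in all 4 libraries (10.7% of all genes were), Lgr4 and Tcf7l1 lower in all 4 (10.3%), and Apc, Ctnnb1 and Tcf7l2 mixed. Without shared barcodes, 7 genes had intervals apart at 0 h, those of Znrf3 and Tcf7l2 then overlapping, and Axin2 joined Tbx3 at 96 h (52.5 and 79.7 CPM). Between the members themselves, the 45 pairs at 2000 counts had a median r of -0.00058 at 0 h and 0.0078 at 96 h, with a range over all libraries of -0.0372 to 0.0550.

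The rest of the pathway was read from a list of 67 autosomal genes, 63 of them over the minimum level. At least 2-fold higher than 0 h were 11, 16 and 6 of these 63 at 48, 72 and 96 h, and lower 2, 5 and 7, where 5.4%, 10.2% and 5.03% of all genes were higher and 1.91%, 5.98% and 8.86% lower. Ligands and enhancers had 4, 4 and 1 of 8 genes over the minimum higher and none lower. The minimum is a mean over all 4 libraries, so a gene under 5 CPM at 0 h could pass it only through later libraries. The ligand and enhancer genes called higher (Wnt4, Rspo1, Rspo3 and Rspo4) were under 5 CPM at 0 h, as were Fzd10 and Dkk3 named below. Counts of higher genes thus depend partly on the minimum, here as over all genes. The R-spondin genes Rspo4 (3.26, 23.5, 28.2 and 2.95 CPM at 0, 48, 72 and 96 h) and Rspo1 (3.08, 11.2, 24.2 and 6.49 CPM) and the ligand gene Wnt4 (3.0, 8.95, 22.5 and 5.76 CPM) were highest at 72 h. Wnt2, a ligand of endothelial cells, was under the minimum, with 0, 1.03, 3.48 and 0.27 CPM. Covered length moved with these values. Between 0 and 72 h it went from 1132 to 6908 bp for Rspo4, 754 to 5710 bp for Rspo1 and 845 to 5802 bp for Wnt4. The summed endothelial markers had 268, 277, 327 and 211 CPM at 0, 48, 72 and 96 h, the stellate markers 76.1, 118, 155 and 134 CPM, and the myeloid markers 171, 240, 213 and 110 CPM. Their part in these levels was not tested.

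Receptors had 3, 4 and 2 of 13 genes higher, among them Fzd10 (1.52, 5.61, 11.1 and 5.02 CPM over 654, 1769, 2720 and 581 bp). Secreted and feedback inhibitors had 3, 5 and 1 of 9 over the minimum higher. Nkd1, a feedback inhibitor induced by the pathway, had 6.01, 13.6, 27.1 and 12.5 CPM over 1738, 4044, 6081 and 1004 bp. Dkk3 had 4.04, 9.24 and 11.1 CPM over 1765, 3499 and 3236 bp and no peak at 96 h. The nuclear partner Lef1 had 6.61, 19.4, 36.6 and 20.02 CPM over 2812, 5902, 8303 and 2113 bp. Lef1 was the 1 of 9 partners past 2-fold at each time. Of the transducers, Dvl2 had 80.4, 16.5, 7.12 and 5.96 CPM, with covered length going from 14268 to 663 bp. In the destruction complex 1, 2 and 2 of 6 genes were lower. Among them, Apc2 had 121, 42.1, 36.4 and 22.8 CPM over 16034, 10596, 6827 and 1709 bp. Of 14 known targets, 0, 1 and 0 were higher and 0, 2 and 3 lower. Cyp1a2, a pericentral cytochrome P450, had 78.8, 49.0, 16.7 and 7.57 CPM over 13720, 12531, 3507 and 732 bp. Gulo, the last enzyme of vitamin C synthesis, had 358, 456, 372 and 59.8 CPM over 38886, 40689, 29340 and 3613 bp. As covered length fell too, these lower CPM do not give a lower level per covered kb by themselves.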

How the data were processed

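Of each library, the deposited files hold barcodes, peaks and a matrix of whole-number counts of transposase cut sites per peak and barcode, which the authors made with Cell Ranger ATAC (matrix header 1.1.0) on mm10. Between 87.3% and 88.6% of values were even, as both ends of a fragment add 1 count each, so Poisson intervals were computed on counts divided by 2. The authors called peaks per library, so a level moves with covered peak length, which is given beside it. No peak ran past the end of a GRCm38 chromosome, and 48.5% to 58.7% of protein-coding start sites lay in a peak (4.92% to 14.7% when shifted by 100 kb).

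Counts were summed over barcodes with at least 1000 counts and over GENCODE vM21 gene bodies plus 2 kb upstream, and scaled to CPM. A peak touching several genes counted for each. Ratios used a pseudocount of 1 CPM. Because there was 1 library per time point, no count model was fitted. Totals in these nuclei were 136582768, 62000846, 24724883 and 14935507 counts. No doublet caller was run, and the 5% deepest nuclei were left out as an alternative. Correlations were Pearson's r after random thinning, and 1 gene of the periportal list is not reported here at 10000 counts. Regions are merged touching or overlapping peaks. The members, gene lists and rules were chosen with earlier results of these data known. All 10 members are named, and other pathway genes are named when past 2-fold, up to 12 by size of fold. Genes with the nearest profile are given for the members with the widest range. Python 3.11.15, NumPy 2.4.6, SciPy 1.17.1, pandas 2.3.3 and matplotlib 3.10.9 were used. Scripts were tested on simulated data. Other settings tried were scaling, minimum depth, window, pseudocount, peak sets, binarised counts and the nuclei kept.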

Additional observations from a re-analysis of the deposited data

Results flagged for a closer look

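Barcodes under the minimum of 1000 counts also held counts over the 10 genes. The main comparisons left these barcodes out, and the alternative setting with no minimum of depth took them in. Their summed counts were 486 at 0 h, 736 at 48 h, 1076 at 72 h and 1194 at 96 h, above the 3 counts that a true 0 allows. Scaled to the counts of those barcodes they came to 1326, 1332, 1320 and 1366 CPM, beside 1337, 1322, 1378 and 1235 CPM in nuclei.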

How the results depend on the processing

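The counts of genes at least 2-fold from 0 h were 1, 1 and 2 of 10 at 48, 72 and 96 h. Per covered kb they were 0, 0 and 10, and Rnf43 at 96 h turned to a log2 ratio of 1.21, where all genes had a median of 1.26. On that scale all 10 genes were above 0 h at 72 h (log2 0.13 to 0.49) and 96 h (1.21 to 2.0), so Znrf3 turned too. In regions with a peak in every library, in peaks within 1 kb of a start site and with binarised counts, the count at 48 h was 0, and with binarised counts those at 72 and 96 h were 2 and 3. In regions of near-equal length, which 9, 9 and 2 of the genes had, the counts were 0, 0 and 1. The gene without a value at 48 h was Lgr5, the one called there, so that count of 0 was fixed by its absence. At 96 h Rnf43 had no such region, so this setting could not show its lower level. Leaving per covered kb aside, the log2 ratio of Lgr5 lay between 0.85 and 1.15 at 48 h, between 0.66 and 1.52 at 72 h, and at 96 h between 1.18 and 1.69, and that of Rnf43 at 96 h from -2.80 to -1.09. The last value comes from whole merged regions. For Znrf3 the range was -1.08 to -0.39 at 72 h and -1.20 to -0.05 at 96 h, so it was past 2-fold in some settings. Without shared barcodes, chosen as a setting after the data were seen, Lgr5 had 1.14, 1.52 and 1.58 and Rnf43 -1.69 at 96 h. Of the 30 log2 ratios of the 10 genes, 4 changed sign in that setting, Rnf43 at 48 h (0.02) among them. The median of the 10 genes at 48 h was then -0.04. Gene body alone, 5 kb upstream, a pseudocount of 0.1 CPM, other minimums of depth, leaving out deep or low-marker nuclei and centring kept the counts at 1, 1 and 2, and scaling to regions with a peak in every library gave 1, 1 and 3.

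The counts of genes with a Cyp2e1 correlation of at least 0.1 in size were 1, 0, 0 and 0. Unthinned they were 10 in each library. At 0 h the count was 0 when thinned to 1000, under another random thinning, without the 5% deepest nuclei or without shared barcodes, 2 with binarised counts and 5 when thinned to 10000, and at 48 h it was 3 when thinned to 10000. The r of 0.105 for Lgr5 at 2000 counts thus sits at the limit. Thinning to 10000 was not run at 96 h, where fewer than 500 nuclei had that depth. No paired analysis was possible because each time point had 1 library and no replicate numbers.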
